A study of Mus musculus with 7 samples.

Results

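This account covers 10 genes of the endoplasmic reticulum (ER): the chaperones Hspa5, Hsp90b1 and Calr, the disulfide isomerases Pdia4 and Pdia6, the stress-induced lumenal genes Sdf2l1, Creld2 and Manf, and the stress genes Xbp1 and Herpud1. They were chosen by name, and all 10 are among the 18193 genes measured. Every probe set (a group of short probes read as 1 value) whose annotation names 1 of these genes alone was taken, which gave 21 probe sets. Each gene is led by the probe set with the highest mean level over the 7 arrays.

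RNA came from plantaris muscle, a calf muscle, of Pax7-DTA mice aged 4 months. All groups share this genotype, from the parental strains Pax7-CreER and Rosa26-DTA, so that tamoxifen leads Pax7-expressing cells to make diphtheria toxin. Pax7 is a transcription factor of satellite cells, the stem cells of muscle. The labels describe vehicle muscle as with satellite cells and tamoxifen muscle as without them. Plantaris was taken after a sham operation, or from overloaded legs 1 week after surgery (synergist ablation, in which muscles that share its work are removed). There was 1 male array with vehicle and sham, 1 male array with tamoxifen and sham, 2 arrays with vehicle and overload (1 female, 1 male) and 3 with tamoxifen and overload (1 female, 2 male). The titles read as single mice while the design text speaks of pooled muscle from 11 animals, which leaves the number of animals per array unsettled. The p-values measure the spread between these arrays, which may in part be technical. The number of arrays limits the precision, and each sham group has 1 array, whose spread is taken from the overload groups.

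The ER folds proteins that are bound for the cell surface or for secretion. Its chaperones hold unfolded chains, its disulfide isomerases set their cysteine bonds, and calreticulin retains sugar-bearing chains until they are folded. When unfolded protein builds up, the sensors Ire1 (gene Ern1), Perk (Eif2ak3) and Atf6 start the unfolded protein response. Ire1 splices Xbp1 messenger RNA, Perk raises translation of Atf4, and cleaved Atf6 and spliced Xbp1 act on promoters that hold the ER stress response element. In muscle the ER is also the sarcoplasmic reticulum, the calcium store of contraction.

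The promoters of the 10 genes were searched for exact matches to that element. RefSeq promoter sequences (assembly GRCm38.p6, 250 bases before to 50 bases after each start) were matched for 9 of the 10 genes, all but Manf. The element, written ERSE, was searched as CCAAT and CCACG with 9 bases between them, on both strands. It was found in 5 of the 9 promoters (55.6%) against 39 of 32851 promoters (0.119%). The genes were chosen by name as ER genes, and the element for its known role in ER stress. These shares are therefore a description and not a test. Each stretch is printed 5′ to 3′ on the strand that reads CCAAT first, with the element in capitals.
Hspa5: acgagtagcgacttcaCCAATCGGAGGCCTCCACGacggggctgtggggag
Hsp90b1, far copy: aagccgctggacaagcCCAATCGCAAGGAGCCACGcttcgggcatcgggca
Hsp90b1, near copy: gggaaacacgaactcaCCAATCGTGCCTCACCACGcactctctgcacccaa
Pdia6: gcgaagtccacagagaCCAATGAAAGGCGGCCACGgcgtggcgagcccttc
Calr: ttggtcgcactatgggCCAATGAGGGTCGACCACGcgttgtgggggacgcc
Creld2: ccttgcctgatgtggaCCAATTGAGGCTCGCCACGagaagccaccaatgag

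The Hspa5 stretch lies at chr2:34772009-34772059 on the + strand, and its element starts 65 bases before the gene's start. The Hsp90b1 copies lie at chr10:86705622-86705672 (- strand) and chr10:86705517-86705567 (+ strand), where they reach 212 and 107 bases before the start. The Pdia6 stretch is at chr12:17266475-17266525 (+ strand), the Calr stretch at chr8:84847059-84847109 (+ strand, opposite to the gene) and the Creld2 stretch at chr15:88819504-88819554 (- strand, opposite to the gene). Their elements reach 98, 162 and 126 bases before the start.

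Herpud1 holds other letters. Its promoter has the related element ERSE-II, searched as ATTGGNCCACG, which was found in 1 of the 9 promoters and in 12 of 32851 (0.0365%). It also has the amino acid response letters TGATGNAA that Atf4 and its partners can bind, found in 1 of the 9 promoters and in 3.97% of all promoters. Both are shown, the first on the gene's own strand and the second on the opposite one.
Herpud1, ERSE-II: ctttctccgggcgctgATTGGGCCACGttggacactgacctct
Herpud1, TGATGNAA: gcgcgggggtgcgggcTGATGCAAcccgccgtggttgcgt

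These stretches are chr8:94386361-94386403 (+ strand) and chr8:94386301-94386340 (- strand), and the motifs reach 52 and 112 bases before the start. A further motif, TGACGTGG, occurred in 0 of the 9 promoters and in 0.676% of all. ATTGG is CCAAT read on the other strand, so ERSE and ERSE-II share letters. A match is a description of the sequence, and the shares of promoters given here test nothing. Pdia4, Xbp1 and Sdf2l1 had no match to these exact patterns in this window, and inexact copies were not searched for.

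The first comparison asked how the 10 genes differed in overload, as the mean of the vehicle and tamoxifen differences (2 sham and 5 overload arrays). Pdia4, Pdia6, Creld2 and Manf rose, by 1.16 ± 0.24, 0.97 ± 0.15, 0.76 ± 0.19 and 0.69 ± 0.20 (log2 difference ± SE). Herpud1 fell by 1.16 ± 0.18 on the log2 scale. The 5 others, Hspa5, Hsp90b1, Calr, Xbp1 and Sdf2l1, had differences from 0.11 to 0.45 and did not pass. These calls are from limma, a linear model with terms for group and sex fitted over all genes, at a Benjamini-Hochberg adjusted p under 0.05. Of all genes tested, 14.7% were called higher and 8.16% lower, beside 4 and 1 of the 10. All 10 genes lay above background, a level set from receptor genes of smell and taste. Among the 12513 genes above it, fitted alone, 2771 were called higher and 1692 lower, which are larger shares. That fit again called 4 and 1 of the 10. The 10 differences had a median of 0.45, beside 0.07 for all genes.

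For 9 of the 10 genes, all but Xbp1, the 5 overload arrays lay wholly on one side of both sham arrays. They were above for 8 genes and below for Herpud1. Across all genes 23.1% had the 5 overload arrays above both sham arrays and 18.3% below. On these arrays fewer cells of a type and less RNA per cell cannot be told apart.

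**Figure D1:**
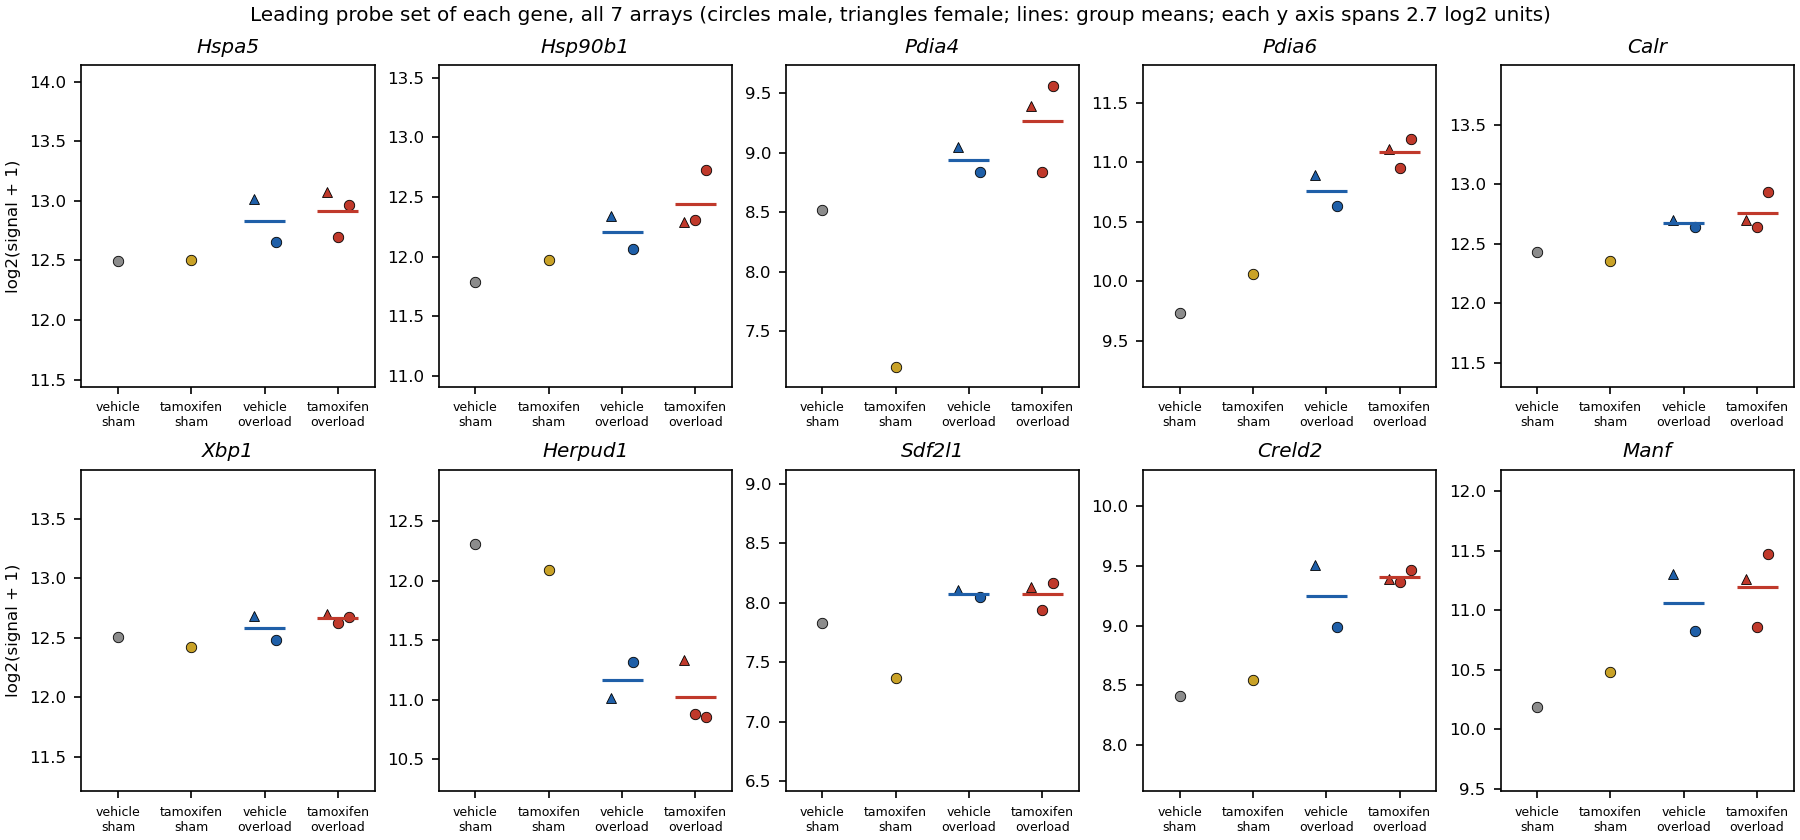
Level of each of the 10 genes, as log2(signal + 1) of its leading probe set, on each of the 7 arrays by group (circles male, triangles female, lines the means of the overload groups; each axis spans 2.7 log2 units). Herpud1 is the gene whose overload arrays all lie below the sham arrays, and Pdia4 has its lowest value, a signal of 147, on the tamoxifen sham array.

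The array signals show how the calls came about. Signals are linear intensities and follow 1 order throughout: vehicle sham, tamoxifen sham, vehicle overload (female, male), tamoxifen overload (female, first male, second male). Probe sets differ in brightness, so a level is compared between arrays and not between genes.

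Pdia6, a disulfide isomerase of the ER lumen, read 849 and 1068 on the sham arrays, 1895 and 1584 with vehicle overload, and 2213, 1975 and 2345 with tamoxifen overload. All overload arrays lay above both sham arrays, and all 3 tamoxifen overload arrays lay above both vehicle overload arrays, as they did for 16.9% of all genes. Its overload difference was 1.96-fold (95% interval of the log2 difference 0.63 to 1.31; adjusted p = 0.00311). Pdia4, a larger isomerase of the same family, read 365 and 147, then 528 and 457, then 672, 458 and 756. The tamoxifen sham array stood far below the other 6, and the vehicle sham array was close to the lowest overload array. The difference was 2.24-fold (0.61 to 1.71; adjusted p = 0.0113). Without the tamoxifen sham array it was 0.50 (adjusted p = 0.30), so the Pdia4 call rests on that array. It also missed the threshold without the male vehicle overload array (1.17, adjusted p = 0.0614).

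Creld2, a lumenal protein secreted under ER stress, read 339 and 373, then 728 and 506, then 672, 660.2 and 706. The lowest overload array, the male with vehicle, still stood above both sham arrays. The rise was 1.70-fold (0.33 to 1.19; adjusted p = 0.0226). The adjusted p was 0.10 without the vehicle sham array and 0.0521 without the second male with tamoxifen overload. Manf, a small lumenal protein that binds the Hspa5 protein, read 1167 and 1428, then 2525 and 1816, then 2451, 1854 and 2844. Both groups of overload arrays spanned much the same range. The rise was 1.61-fold (0.22 to 1.16; adjusted p = 0.0444), the closest of the called genes to the threshold. It missed the threshold when either sham array, either female array or the male vehicle overload array was left out, with differences from 0.54 to 0.85 and adjusted p from 0.0577 to 0.225.

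Sdf2l1, a partner of the Hspa5 chaperone, read 226 and 165, then 274 and 264, then 279, 244 and 286. The overload arrays lay just above the vehicle sham array, and the tamoxifen sham array was lowest. The difference of 0.45 ± 0.22 did not pass (95% interval -0.06 to 0.96; adjusted p = 0.199).

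Hspa5, which encodes BiP, the Hsp70 chaperone that also binds the stress sensors, read 5787 and 5800.4, then 8266 and 6432, then 8643, 6644 and 7974. The sham arrays were nearly equal, and both female arrays were the highest. The difference of 0.25 ± 0.15 did not pass (-0.09 to 0.59; adjusted p = 0.28), and the interval leaves out a rise of 1 log2 unit. Hsp90b1, which encodes Grp94, the Hsp90 chaperone of the ER, read 3525 and 4010, then 5194 and 4292, then 5001, 5063 and 6785. The second male with tamoxifen overload was the highest. The difference was 0.45 ± 0.18 (0.03 to 0.88; adjusted p = 0.122). Without the first male with tamoxifen overload it was 0.52 and passed (adjusted p = 0.0433). Calr, the calcium-binding lectin chaperone calreticulin, read 5523 and 5257, then 6662 and 6396, then 6641, 6384 and 7854. The overload arrays were all above the sham arrays by a small step. The difference was 0.33 ± 0.15 (-0.02 to 0.68; adjusted p = 0.162).

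Xbp1, whose spliced form is a transcription factor of the response, read 5821 and 5488, then 6586 and 5710.3, then 6674, 6328 and 6540.1. The male vehicle overload array lay between the sham arrays. The difference of 0.11 ± 0.13 did not pass (-0.20 to 0.42; adjusted p = 0.615). A probe set of this kind sums spliced and unspliced Xbp1, so splicing was not measured. Herpud1, a membrane protein that serves the degradation of misfolded ER proteins, read 5074 and 4348, then 2075 and 2550.4, then 2575, 1885 and 1854. The highest overload array, at 2575, stood well below the lower sham array, at 4348. The fall was 2.23-fold (log2 -1.58 to -0.74; adjusted p = 0.0038), and it passed when any 1 array was left out, with log2 differences from -1.48 to -1.05.

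The model and the scaling move these calls. Without the intensity trend in the variances, or in an ordinary linear model, 0 of the 10 genes and 0 of all genes were called. Centring each array on its median shifted the differences of all genes by 0.29 (log2) towards lower values, and quantile normalization shifted them by 0.165. After centring Hspa5 stood at -0.042 and Xbp1 at -0.18, while the 7 other genes above 0 stayed above 0 and Herpud1 stayed below. Under either scaling 2 of the 10 genes were called higher (Pdia4 and Pdia6) and 1 lower (Herpud1), in place of 4 and 1. Centring changed the calls over all genes from 2678 higher and 1485 lower to 1740 and 2710. Both sham arrays were male. With male arrays alone Pdia4, Pdia6 and Creld2 were called higher and Herpud1 lower, and Manf was 0.66 (adjusted p = 0.0545).

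The other probe sets of the same genes gave a second reading. Sdf2l1, Creld2 and Manf have 1 probe set each, and the 7 other genes have more. The second probe set of Herpud1 read 4352 and 4024 on the sham arrays and from 1332 to 2088 on the overload arrays, a fall of 1.33 on the log2 scale (adjusted p = 0.00323 over all probe sets). The other Calr probe sets gave 0.44 and 0.48 and that of Hsp90b1 gave 0.34, close to the leading ones, and none of these passed over all probe sets. The brighter of those Calr probe sets did pass where it stood for the gene (0.48, adjusted p = 0.0466). The other Hspa5 probe sets gave -0.15 and 0.22 and those of Xbp1 gave -0.26, 0.33 and -0.23, so these genes have no direction that all probe sets share. The second probe sets of Pdia4 and Pdia6 lay below background on average (5.77 on the log2 scale, a signal of 53.6) and gave -0.75 ± 1.00 and -0.61 ± 0.45. They do not measure the genes well enough to set against the leading ones. Averaging them in removed the calls of Pdia4 and Pdia6, at 0.21 and 0.18.

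**Figure D2:**
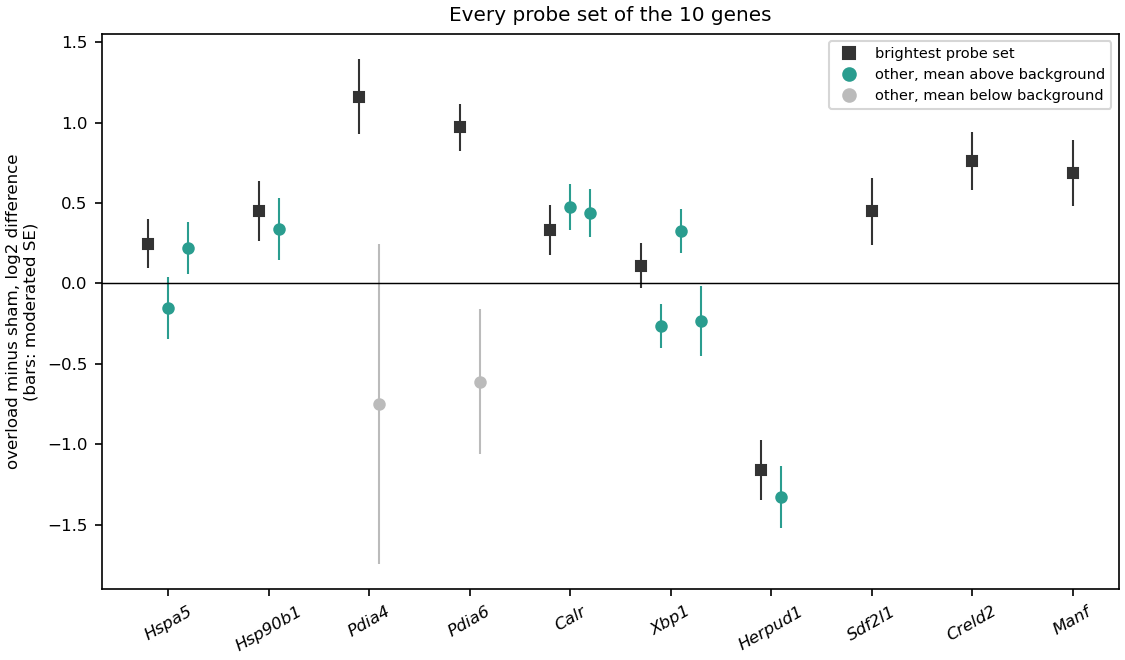
Overload minus sham (log2 difference, bars the moderated SE) for each of the 21 probe sets of the 10 genes; squares are the leading probe sets, green circles others above background and grey circles those below it. Both Herpud1 probe sets lie below -1, and the probe sets of Hspa5 and Xbp1 lie on both sides of 0.

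The comparison was then made within each treatment, with 1 sham array each. With vehicle, Pdia6 rose by 0.96 ± 0.21 (adjusted p = 0.0294) and Herpud1 fell by 1.21 ± 0.26 on the log2 scale (adjusted p = 0.0288). Of all genes 6.35% were called higher and 2.44% lower there. Both calls were lost with male arrays alone (0.90 and -0.99, adjusted p = 0.0832 and 0.0554). With tamoxifen, Pdia4 rose by 2.00 ± 0.31 (adjusted p = 0.00609) and Pdia6 by 0.98 ± 0.19 (adjusted p = 0.0132), and Herpud1 fell by 1.11 ± 0.24 on the log2 scale (adjusted p = 0.0191). Of all genes 9.98% were called higher and 4.9% lower there. Without the second male, the Herpud1 value was -1.02 (adjusted p = 0.0585). Creld2 and Manf had 0.73 and 0.75 with vehicle and 0.79 and 0.63 with tamoxifen, and none of these passed.

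**Figure D3:**
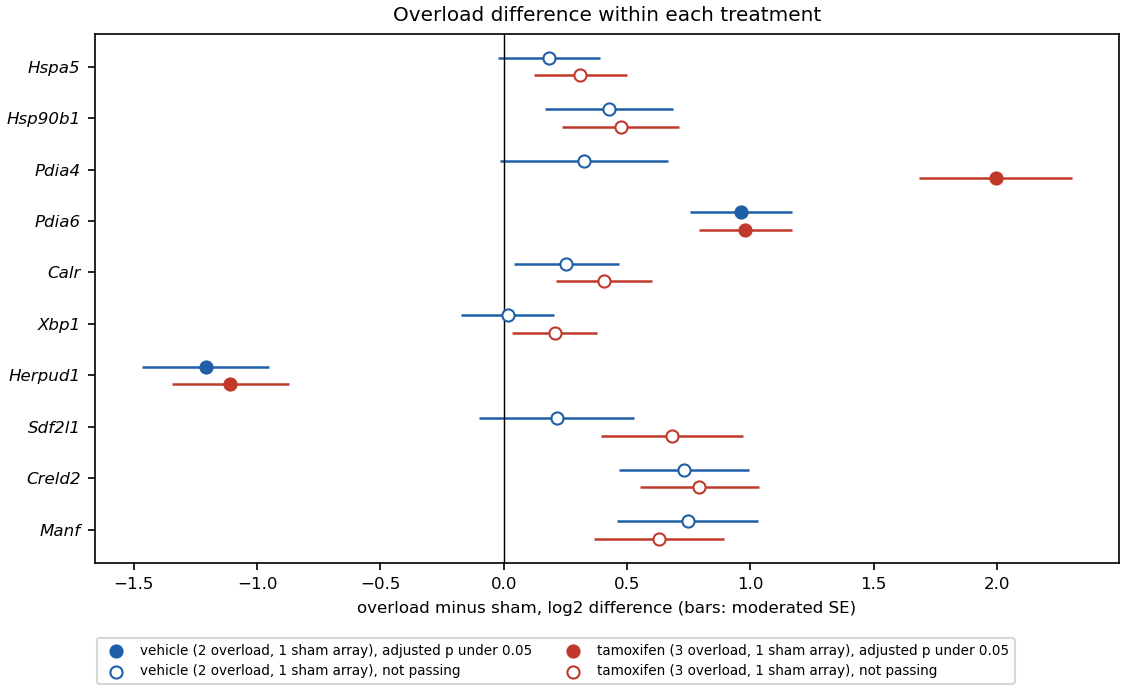
Overload minus sham (log2 difference, bars the moderated SE) of the 10 genes with vehicle (blue, 2 overload and 1 sham array) and with tamoxifen (red, 3 overload and 1 sham array); filled points passed an adjusted p under 0.05. Pdia6 and Herpud1 are filled in both treatments and lie close together, while Pdia4 lies at 0.33 with vehicle and 2.00 with tamoxifen.

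Whether the overload difference itself depended on the treatment was tested by the interaction term. None of the 10 genes passed, and of all genes 0 (0%) did, or 12 without the first male with tamoxifen overload. With all arrays 1021 genes had an unadjusted p under 0.05. The largest of the 10 was Pdia4, at 1.67 ± 0.44 (unadjusted p = 0.00522, adjusted p = 0.735), which again contains the tamoxifen sham array. The others ran from -0.12 for Manf to 0.47 for Sdf2l1, with 95% intervals of -0.60 to 0.64 for Pdia6, -0.67 to 0.87 for Herpud1 and -0.47 to 1.40 for Sdf2l1. In sham muscle, with 1 array a side and no test, tamoxifen minus vehicle was -1.31 for Pdia4, -0.46 for Sdf2l1 and -0.22 for Herpud1. It was 0.33 for Pdia6, 0.29 for Manf, 0.19 for Hsp90b1 and 0.13 for Creld2, and within 0.09 of 0 for Hspa5, Calr and Xbp1.

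Overloaded muscle with and without tamoxifen was compared directly, 3 against 2 arrays. None of the 10 genes passed, and of all genes 0 (0%) did (1932 genes at an unadjusted p under 0.05). The differences ran from -0.12 for Herpud1 to 0.36 for Pdia4, and 9 of the 10 were above 0. So were 9609 of all 18193 genes, with a median of 0.03. That all-gene median became -0.12 under median centring. Small differences above 0, such as those of Hspa5 (0.13), Xbp1 (0.11), Calr (0.08) and Sdf2l1 (0.01), therefore depend on the scaling. Pdia6 was the only one of the 10 whose arrays did not overlap between these groups, at a mean signal of 2178 ± 187 (SD, n = 3) with tamoxifen against 1740 ± 220 (SD, n = 2) with vehicle. Of all genes 16.9% had the tamoxifen arrays wholly above the vehicle arrays here and 12.6% wholly below, so 1 of 10 is no more than the share of all genes. The Pdia6 difference was 0.35 ± 0.15 (0.01 to 0.69; unadjusted p = 0.0447, limma adjusted p = 0.466). The interval for Hspa5 ran from -0.21 to 0.47 and that for Herpud1 from -0.55 to 0.30. Between the sexes none of the 10 passed, and 9 of all genes (0.0495%) did, or 37 without the first male with tamoxifen overload. Hspa5 had the largest difference, 0.30 ± 0.15 higher in females (adjusted p = 0.98). Both female arrays were overload arrays.

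The levels of the 10 genes were set against each other over the arrays. Pearson's r between any pair of the 9 other genes ran from 0.63 (Hsp90b1 and Sdf2l1) to 0.98 (Pdia4 and Sdf2l1) over the 7 arrays. Herpud1 had r from -0.95 (Creld2) to -0.71 (Hspa5) with the others. These are descriptions over arrays that share the overload step, and no test was made. The mean of the 10 genes was lowest on the tamoxifen sham array (10.5 on the log2 scale) and highest on the second male with tamoxifen overload (11.2). Among 12503 other genes above background, the 8 whose level over the 7 arrays was most like that mean were Neil3, Eml4, Ms4a4c, Tcf4, Etv6, Ifi207, Hnrnpf and Gmppb (r from 0.987 to 0.995). Their overload differences ran from 0.36 for Tcf4 to 2.01 for Ms4a4c.

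Other genes of ER folding, transport and stress, together with chaperones of the cytosol and mitochondria, were taken as 12 lists, 213 different genes in all. In overload 73 of them rose and 21 fell, beside 14.7% and 8.16% of all genes, and the count that fell is near the share of all genes. Their median was 0.34 beside 0.07 for all genes. Counts of each list below read against the same 2 shares. Most list genes lay above background, where larger shares of genes were called in both directions. The ER peptidyl-prolyl isomerases, which turn proline bonds, had the highest median, 1.30, and 5 of 6 rose. Fkbp7 rose by 2.03, Ppib (cyclophilin B) by 1.38 and Fkbp14 by 1.21. Fkbp11 rose by 2.57, and 1 of its 2 sham arrays was below background, so that value is inexact. The list kept 5 rises under centring, under quantile normalization and without any 1 array, 2 with the mean of each gene's probe sets, and 0 without the intensity trend or in an ordinary linear model.

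Of 15 other disulfide isomerases and oxidases 7 rose and 0 fell (median 0.53). After centring, or with the mean of each gene's probe sets, 5 of these rose. Pdia5 rose by 1.65, the peroxidase Prdx4 by 1.62, the secreted oxidase Qsox1 by 1.56 and Pdia3, the isomerase that works with calreticulin, by 1.32. These exceed the 0.97 of Pdia6. Of 11 genes of lumenal calcium binding 8 rose and 0 fell (median 0.79). After centring 5 of these rose, and with the mean of each gene's probe sets 6 rose and 1 fell. The reticulocalbins Rcn3 and Rcn1 rose by 2.48 and 1.87, Casq2, the calcium store protein of slow and cardiac muscle, by 2.20, and Nucb2 by 1.36. Of 11 genes of lectin chaperones and sugar trimming 5 rose and 0 fell (median 0.46), led by Mogs (0.81), Uggt1 (0.79), Lman1 (0.62) and Prkcsh (0.55). None of these 11 was called after centring or without the male vehicle overload array, 1 was called without the vehicle sham array and 3 without either female array.

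Of 29 genes of the translocon and of N-glycosylation 11 rose and 2 fell (median 0.35). Sec61a1, the channel through which chains enter the ER, rose by 1.88, Ssr1 by 1.68, the glycosyltransferase subunit Stt3a by 1.62 and Tram2 by 1.49. Sec61a1 read 517 and 699 on the sham arrays and 1596 to 3863 on the overload arrays, with the second male with tamoxifen highest. Of 27 genes of ER to Golgi transport 14 rose and 3 fell (median 0.58). Kdelr3, a receptor that returns ER proteins from the Golgi, rose by 2.74, Arfgap3 by 1.65, Tmed3 by 1.62 and the coat subunit Sec24d by 1.21. Kdelr3 read 196 and 153 on the sham arrays, 1182 and 742 with vehicle overload, and 1755, 1479 and 1956 with tamoxifen overload. After centring 7 genes of this list rose and 4 fell, and without the male vehicle overload array 7 rose and 0 fell. Without the vehicle sham array 10 rose and 1 fell here, and 7 rose and 1 fell among the 29 translocon genes.

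Of 12 co-chaperones of the ER, partners of Hspa5 among them, 2 rose and 2 fell (median 0.33). Cnpy4 rose by 1.23 and Sec63 by 0.54. The J-domain partners of Hspa5, Dnajb9 and Dnajc3, fell by 0.55 and 0.54 on the log2 scale. The 3 smaller of these calls were lost under quantile normalization and when either sham array or either vehicle overload array was left out, and 2 of the 4 calls were lost without the female tamoxifen overload array. Of 23 genes of ER-associated degradation 4 rose and 0 fell (median 0.16), where 14.7% of all genes rose, so the count of rises is near that share. The 4 were Ubxn8 (0.91), Edem1 (0.76), Os9 (0.66) and, named after its value was seen, Derl2 (0.59). Derl3 was at -0.88 and did not pass (adjusted p = 0.209). After centring 0 rose and 3 fell. Without the vehicle sham array 0 were called, and 1 was called without the tamoxifen sham array, the male vehicle overload array or the second male with tamoxifen overload. Herpud1, at -1.16, thus lay below every one of these 23 degradation genes.

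**Figure D4:**
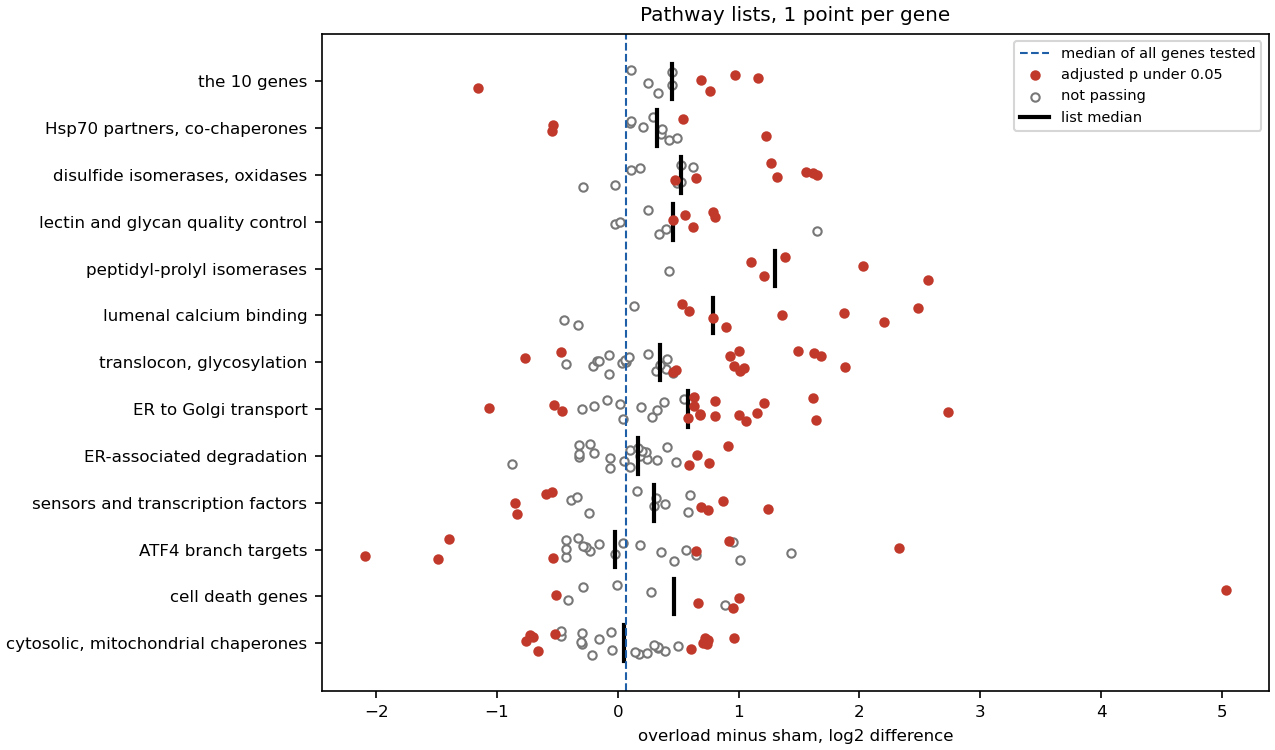
Overload minus sham (log2 difference) of each gene in the 10-gene set and in the 12 other lists, 1 point per gene (red passed an adjusted p under 0.05, open did not; black bars are list medians, the dashed line the median of all genes, 0.07). The isomerase, calcium-binding and transport lists extend to the right, while the Atf4 branch list has its median at -0.03. The point at 5.03 is Pmaip1, whose sham arrays were both below background.

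The sensors and transcription factors were divided. Eif2ak3 (Perk) rose by 0.87 ± 0.17 (adjusted p = 0.00878), from 290 and 326 on the sham arrays to 528 and 450 with vehicle overload and 809, 657 and 755 with tamoxifen overload. Atf4, the factor downstream of Perk, fell by 0.84 ± 0.14 on the log2 scale (adjusted p = 0.0054), from 6726 and 6395 to between 3403 and 4245. Ddit3 (Chop), a target of Atf4, fell by 0.85 ± 0.18 on the log2 scale (adjusted p = 0.0118), from 803 and 741 to between 434 and 614. Ern1 (-0.39 ± 0.16, adjusted p = 0.13) and Atf6 (-0.24 ± 0.15, adjusted p = 0.303) did not pass, and the sign of Ern1 turned under 2 of 19 alternatives. In the list of 17 sensors and factors 4 rose and 4 fell. The others that rose were Creb3l1 (1.24), Creb3 (0.74) and Creb3l2 (0.69), membrane-bound factors of the secretory pathway, and the others that fell were Nfyb (-0.59) and Nfyc (-0.55), subunits of the factor that binds CCAAT. Creb3, Creb3l2, Nfyb and Nfyc are named after their values were seen.

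These calls depend on single arrays and on the probe sets used. Of the 17 genes 1 rose and 1 fell without the male vehicle overload array, 2 rose and 1 fell without the vehicle sham array, and 2 rose and 7 fell after centring. Eif2ak3 and Atf4 were not called without the male vehicle overload array, and Ddit3 was not called without the vehicle sham array. The mean of each gene's probe sets left Atf4, Ddit3 and Eif2ak3 uncalled. Eif2ak3 was also not called after quantile normalization. Between treatments in overload Eif2ak3 was 0.63 ± 0.17 higher with tamoxifen (adjusted p = 0.385), and its tamoxifen arrays lay above its vehicle arrays, as for 16.9% of all genes.

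Of 25 targets of the Atf4 branch 3 rose and 4 fell, beside 14.7% and 8.16% of all genes, and the median was -0.03. Without the vehicle sham array 1 rose and 3 fell. After centring 1 rose and 7 fell, where 1740 of all 18193 genes rose and 2710 fell. Chac1, which degrades glutathione and is a marker of this branch, fell by 2.09 on the log2 scale, from 2038 and 1169 on the sham arrays to between 288 and 530. Atf5 fell by 1.49 on the log2 scale, from 2001 and 1956 to between 647 and 894, and Vldlr by 1.40. Psat1, an enzyme of serine synthesis, rose by 2.33, from 98.7 and 92.7 to between 361 and 553. None of these 4 genes overlapped between sham and overload arrays, where 23.1% of all genes lay wholly above and 18.3% wholly below. They were named for the largest differences in their list, which makes such separation likely. Their calls held when any 1 array was left out but were lost without the intensity trend or in an ordinary linear model. Of 10 genes of cell death under ER stress 4 rose and 1 fell. Pmaip1 (Noxa) was below background on both sham arrays and was at least 4.57-fold higher, Bok rose by 1.01 and Bak1 by 0.96, while Bbc3 (0.88, adjusted p = 0.067) did not pass. After centring 1 rose and 3 fell, and without the vehicle sham or the male vehicle overload array 2 rose and 0 fell. Of 28 chaperones of the cytosol and mitochondria 6 rose and 5 fell (median 0.05), among them Hspb8 (0.96), Hspb1 (0.75) and Hspa2 (0.74) higher and mitochondrial Hspa9 (-0.76) lower. After centring 0 rose and 8 fell. Without the male vehicle overload array 2 rose and 0 fell, without the vehicle sham array 2 rose and 2 fell, without the tamoxifen sham array 3 rose and 3 fell, and without either female array 4 rose and 3 fell.

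**Figure D5:**
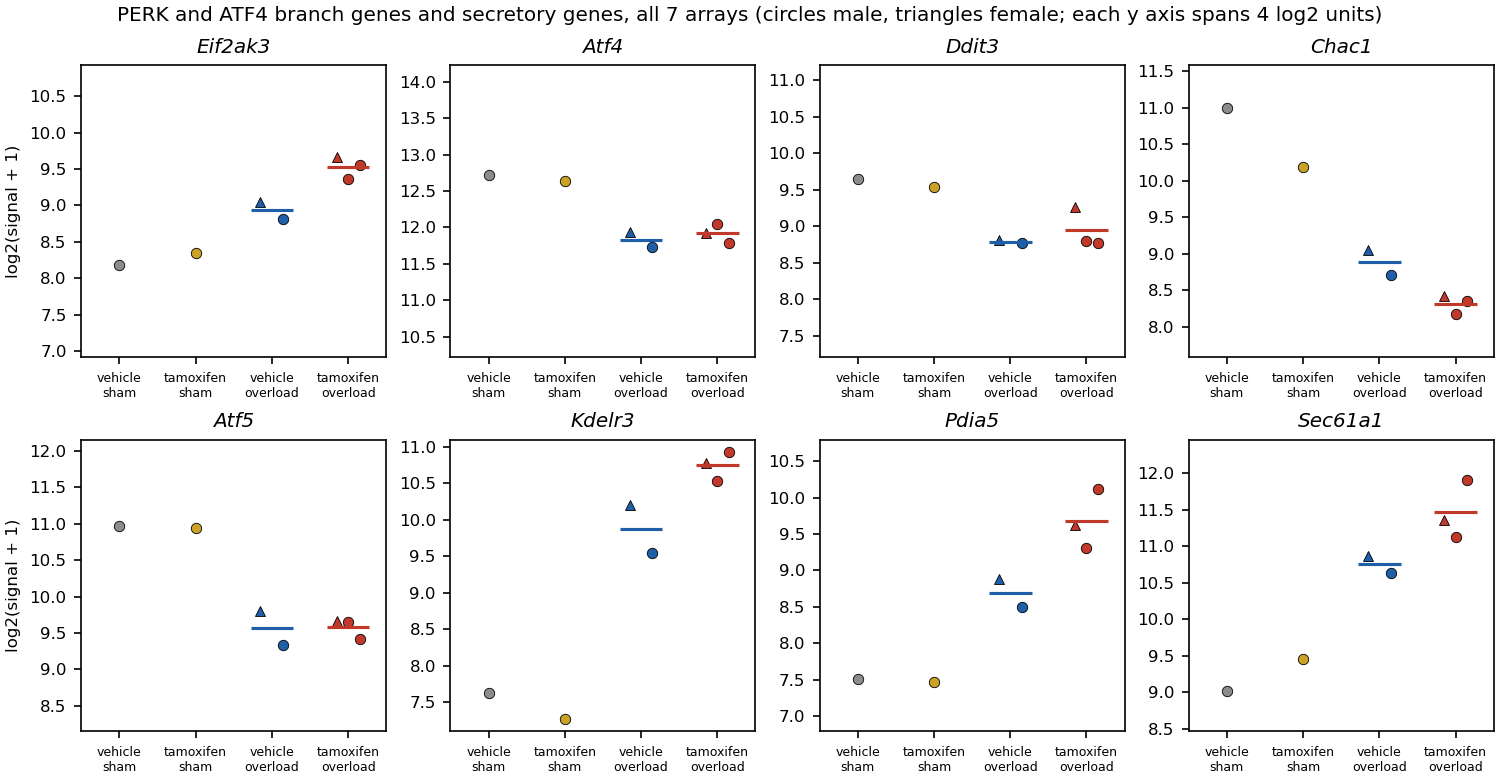
Level, as log2(signal + 1), of Eif2ak3, Atf4, Ddit3, Chac1 and Atf5 and of the secretory genes Kdelr3, Pdia5 and Sec61a1 on each of the 7 arrays by group (circles male, triangles female, lines the means of the overload groups; each axis spans 4 log2 units). Overload arrays lie below both sham arrays for Atf4, Ddit3, Chac1 and Atf5 and above them for the 4 others. Of all genes 18.3% lay wholly below and 23.1% wholly above.

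Genes with the promoter elements shown above did not all move with the 10. Outside the 10 genes, 15 measured genes have ERSE in their promoter window, of which 3 rose and 2 fell (median 0.20), near the 14.7% and 8.16% of all genes (median 0.07). Besides Herpud1, 8 measured genes have ERSE-II. Of these Nucb1, a calcium-binding protein, rose by 0.79 and Lgalsl fell by 1.30 on the log2 scale, and the others did not pass. Of the ERSE genes known for ER work, Canx was at 0.34 (adjusted p = 0.0999) and Syvn1 at 0.20 (adjusted p = 0.377). Ero1b was at 0.49 (adjusted p = 0.21), Alg12 at 0.08 (adjusted p = 0.905) and Derl3 at -0.88 (adjusted p = 0.209). Dnajc3 fell by 0.54 on the log2 scale. Nucb1, Lgalsl, Canx, Syvn1, Ero1b and Alg12 are named after their values were seen.

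Most markers of fibroblasts and macrophages were called higher in overload, and most markers of the other cell types listed were not. Of 12 fibroblast markers 11 rose (median 2.04), and their summed signal was 45504 to 58108 on the sham arrays and 131299 to 163779 on the overload arrays. Of 11 macrophage markers 10 rose (median 1.76), with sums of 5017 to 8589 and 20142 to 31570. Of 12 muscle fibre markers 0 were called, all lay below 0 (median -0.32), and their sums were 453380 to 475402 and 317942 to 405070. The plasma cell list, whose cells are rich in these ER genes, had 1 of 10 higher (Sdc1) and 7 of 10 above background. Of its markers Tnfrsf17, Cd79a and Pou2af1 were below background on average. Jchain, Prdm1, Mzb1, Irf4, Derl3, Sdc1 and Xbp1 were above it, Irf4 and Mzb1 narrowly (5.91 and 6.09 beside 5.77 on the log2 scale). The sums of the list (6389 to 6778, and 6803 to 8566) are mostly Xbp1 itself. Of 9 satellite cell markers 3 rose and 7 lay above 0. Their median was 1.07, and it was 1.155 with vehicle and 0.08 with tamoxifen. Of 9 endothelial markers 2 fell (1 without the vehicle sham array, 0 without the tamoxifen sham or the male vehicle overload array). Of these 9, 5 lay above 0 (median 0.30). Pax7, the targeted cells' marker, read 92.8 with vehicle sham, 41.2 with tamoxifen sham, 274 and 349 with vehicle overload, and 120, 57.9 and 9.97 with tamoxifen overload. The part that a changed mix of cells has in the ER gene differences was not tested.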

How the data were processed

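The deposited values are linear intensities, processed by the authors, from 7 Affymetrix Mouse 430 2.0 arrays, hybridised with 1 µg of total RNA labelled by a whole-transcript kit, per the labels. On every array their mean without the lowest and highest 2% is 500, which is a scaling of the whole array. Median signals were 88.2 to 127.7. The submitters' processing notes name Partek. The summarisation method was not given in the sources used here.

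Values were taken as log2(value + 1), and each of 18193 genes by its brightest probe set. Background was set at the 95th percentile over 77 receptor genes of smell and taste, by mean level, and 68.8% of genes lay above it. One model with terms for group and sex was fitted over all genes with limma 3.58.1 in R 4.3.3, with variances moderated along an intensity trend (2 residual and 5.95 prior degrees of freedom). Calls needed an adjusted p (Benjamini-Hochberg, two-sided) under 0.05. SE is limma's moderated SE and intervals are 95% intervals. The procedure was tested on simulated data. The genes described and the lists were chosen with earlier results of these data known. Of each list up to 4 genes above background with the largest overload difference are named, with Ern1, Eif2ak3, Atf6, Atf4 and Ddit3. Alternatives were 13 of processing, of which 1 (the mean of probe sets above background) was added after seeing the data, and leaving out each of 7 arrays. The plots used matplotlib 3.10.9 with Python 3.11.15.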

Additional observations from a re-analysis of the deposited data

How the results depend on the processing

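Of the 10 genes, 5 were called for overload against sham, 2 with vehicle and 3 with tamoxifen. In the first comparison the count was 3 after quantile normalization, 3 after median centring, 2 with the mean of the probe sets, and 3 to 6 when 1 array was left out. With vehicle it was 0 for male arrays alone and after quantile normalization, 1 after centring, with the mean of the probe sets or with the second brightest ones, and 0 to 3 when 1 array was left out. With tamoxifen it was 1 with the mean of the probe sets or the second brightest ones and 2 to 4 when 1 array was left out. With variances moderated without a trend, or in an ordinary linear model, it was 0 in each of the 3, as for all genes tested, and the cause was not tested. It was 0 under every alternative run for tamoxifen against vehicle, the interaction and sex. Leaving out a female array leaves the sex term to the other, so these fits nearly repeat that of male arrays alone. No paired analysis was possible because the labels number only the male tamoxifen overload arrays, and those numbers link no arrays of different groups.

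Among the values followed under the alternatives, directions turned in these cases, where the cause was not tested beyond the change of scale or probe set itself. Median centring gave Hspa5 -0.042 (overload against sham) and -0.12 (vehicle), Xbp1 -0.18, -0.29 (vehicle) and -0.071 (tamoxifen), Calr -0.048 and Sdf2l1 -0.088 (both vehicle). Quantile normalization gave Sdf2l1 -0.14 (vehicle). The second brightest probe set, for the mean, vehicle and tamoxifen comparisons in turn, gave Hspa5 -0.15, -0.045 and -0.26, Pdia4 -0.75, -0.69 and -0.81, Pdia6 -0.61, -0.73 and -0.50, and Xbp1 -0.26, -0.38 and -0.14. For Pdia4 it gave -0.70 between treatments in overload and -0.12 for the interaction. The mean of the probe sets gave Xbp1 -0.015 and -0.10 (vehicle), also over those above background, and Pdia4 -0.18 (vehicle) and -0.17 (between treatments). Xbp1 with vehicle was -0.028 for male arrays alone and from -0.028 (without either female array) to 0.13 when 1 array was left out. Herpud1 between treatments ran from -0.45 to 0.31 when 1 array was left out, the latter without the male vehicle overload array. The values followed were those of all 10 genes in the mean, vehicle and tamoxifen comparisons of overload with sham. Also followed were Pdia6, Pdia4 and Herpud1 between treatments in overload, Pdia4 for the interaction and Hspa5 for sex. Other genes were not followed in those last comparisons, so turns among them are not listed. Of the single values followed, 545 kept direction and call, 53 lost the call, 6 gained it and 32 turned.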
